A study of Mus musculus with 9 samples.

Results

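The smooth muscle contractile genes examined here are Acta2, Tagln, Myh11, Cnn1, Smtn, Actg2, Lmod1, Mylk, Sgcd and Myocd, a list of 10 genes taken by symbol. Each had exactly 1 transcript cluster (the probe set that stands for a gene), so 10 of the 22206 clusters measured were taken, each read on all 9 arrays. The samples were RNA of thymic lobes dissected from C57BL/6 mouse embryos at e13.5, hybridised to whole-transcriptome Clariom S arrays. The 3 genotypes, with 3 arrays each, were wild type, Foxn1933/1089 (compound heterozygous for a pair of mutant alleles of Foxn1, the transcription factor that thymic epithelium needs; here Foxn1 mutants) and Tbx1neo2/neo2 (homozygous for an allele known to lower expression of the pharyngeal T-box gene Tbx1; here Tbx1 mutants). No treatment was given in the labels, and all groups share strain and age. The labels do not say whether the arrays of a genotype came from separate embryos or litters or from pooled lobes, so the p-values describe only the spread between these samples.

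Smooth muscle contracts when calcium and calmodulin activate myosin light chain kinase, which phosphorylates myosin and lets it pull on actin filaments. The genes for these proteins are switched on together by serum response factor bound to DNA elements called CArG boxes, with myocardin as a co-activator. In the fetal thymus, smooth muscle and pericytes wrap the vessels that grow in with the neural crest mesenchyme around the lobe, and large arteries with thick muscular walls run beside it. Actin and transgelin are also made by other mesenchymal cells before a full contractile apparatus is in place.

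Promoter sequences are shown for the members around which the results turn, 2 that were high on single arrays (Acta2 and Cnn1) and 2 that were high on all Tbx1 mutant arrays (Mylk and Sgcd). They run from 250 bases before to 50 bases after the gene start in the RefSeq annotation of GRCm38.p6, where 6 of the 10 members matched by symbol. Each is written 5′ to 3′ on the gene's strand, with matches to the motifs searched in capitals.
Acta2, chr19:34255324-34255623 (minus strand): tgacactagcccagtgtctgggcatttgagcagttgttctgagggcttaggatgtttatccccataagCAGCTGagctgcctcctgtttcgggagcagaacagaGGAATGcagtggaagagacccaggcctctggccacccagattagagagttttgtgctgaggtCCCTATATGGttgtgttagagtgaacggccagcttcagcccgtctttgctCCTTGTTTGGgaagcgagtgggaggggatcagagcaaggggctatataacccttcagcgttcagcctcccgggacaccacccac
Cnn1, chr9:22099003-22099302 (plus strand): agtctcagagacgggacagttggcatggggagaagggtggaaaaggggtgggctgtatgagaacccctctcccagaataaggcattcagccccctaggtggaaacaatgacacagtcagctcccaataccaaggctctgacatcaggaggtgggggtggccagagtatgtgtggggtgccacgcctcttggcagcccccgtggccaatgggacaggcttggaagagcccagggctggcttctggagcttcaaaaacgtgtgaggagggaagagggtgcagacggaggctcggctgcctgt
Mylk, chr16:34784700-34784999 (plus strand): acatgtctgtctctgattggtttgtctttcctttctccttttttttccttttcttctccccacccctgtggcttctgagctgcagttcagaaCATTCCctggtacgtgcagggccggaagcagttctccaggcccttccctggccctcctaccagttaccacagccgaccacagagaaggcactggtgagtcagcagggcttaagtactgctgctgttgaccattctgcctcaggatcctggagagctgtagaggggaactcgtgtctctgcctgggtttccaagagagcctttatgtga
Sgcd, chr11:47379276-47379575 (minus strand): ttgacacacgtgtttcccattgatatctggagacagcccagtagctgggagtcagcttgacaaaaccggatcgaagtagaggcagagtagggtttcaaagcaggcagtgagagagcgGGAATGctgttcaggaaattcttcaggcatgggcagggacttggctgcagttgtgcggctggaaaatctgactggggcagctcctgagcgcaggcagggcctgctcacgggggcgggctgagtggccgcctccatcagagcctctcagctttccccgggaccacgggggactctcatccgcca

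The motifs were the CArG box (CC, 6 bases of A or T, GG), a CArG-like form that allows 1 G or C among the 6, CATTCC (the core of the MCAT element read by TEAD factors), TATAAA and the E-box CAGCTG, all on both strands. The Acta2 promoter held the CArG-like matches CCCTATATGG at -84 and CCTTGTTTGG at -34 from the start, and it was the only one of the 6 with such a match. The strict CArG box was in none of the 6 windows, and it is in 1.63% of the 32851 promoter windows of this length, against 9.98% for the CArG-like form. CATTCC lay in 5 of the 6 (Acta2, Smtn, Lmod1, Mylk and Sgcd) and in 14.7% of all windows, CAGCTG in Acta2 and Lmod1 (16.3% of all), and TATAAA in none of the 6 (13.6% of all). No capital letter appears in the Cnn1 window. A missing match says only that these letters are not in this window.

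Some arrays stood apart before any member was considered. Wild type replicate 1 and Foxn1 mutant replicate 2 were low in thymic genes: the mean log2 level of 9 thymic epithelial genes was 6.99 and 7.28 on them and 10.49 to 11.04 elsewhere, and that of 7 leukocyte genes 7.20 and 7.29 against 9.98 to 11.42. Wild type replicate 1 was high in neuronal genes (list mean 11.85, 5.49 to 5.88 elsewhere), Foxn1 mutant replicate 2 in heart muscle genes (6.95, 4.43 to 5.96 elsewhere), and wild type replicate 2 in skeletal muscle genes (7.76, 4.06 to 5.67 elsewhere). Titles of the samples include 3 date codes (A, B and C below), of unstated meaning. Code A holds 1 array of each genotype: Tbx1 mutant replicate 1, Foxn1 mutant replicate 2 and wild type replicate 3. The median of the negative-control probes, used here as the background level, lay between 4.27 and 4.94 on the log2 scale, and their 95th percentile between 8.03 and 9.70. Foxn1 read 8.73 to 9.67 in its mutants and 7.78 to 10.35 in wild type, and Tbx1 4.80 to 5.38 in its mutants and 4.25 to 5.85 in wild type. These levels do not check the labels, because the sources used here do not place their probes relative to the altered sequence. In bulk lobes, fewer smooth muscle cells and less RNA per cell cannot be told apart.

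Myocd and Myh11 were not above background, and Lmod1 was close to it. Myocd, the myocardin gene, stood at 2.53, 2.64 and 2.56 (wild type), 2.46, 2.67 and 3.17 (Foxn1 mutants) and 2.96, 3.15 and 2.67 (Tbx1 mutants), under the negative-control median on all 9 arrays. Myh11, the smooth muscle myosin heavy chain and the usual marker of mature smooth muscle, stood at 4.13, 3.70 and 3.66 (wild type), 3.49, 3.56 and 2.94 (Foxn1 mutants) and 4.27, 3.24 and 3.33 (Tbx1 mutants), also under that median on every array. Lmod1, leiomodin, which seeds smooth muscle actin filaments, stood at 4.76, 4.50 and 4.34 (wild type), 4.30, 4.63 and 4.47 (Foxn1 mutants) and 4.78, 5.05 and 4.81 (Tbx1 mutants). It passed the negative-control median on 6 of the 9 arrays, by at most 0.37. So of the label's defining genes, the master regulator and the heavy chain were not above background here. Differences between genotypes in Myocd and Myh11 are differences between background values. The median of all clusters, 5.09 to 5.20 across the arrays, was itself not far above that level. Whether the transcripts of these genes were absent was not tested.

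The members that were above background on all 9 arrays were Acta2, Tagln, Smtn and Sgcd; Mylk was on 8, Cnn1 on 5 and Actg2 on 3. Against the stricter 95th percentile of the negative controls, Acta2 passed on 6 arrays, Tagln on 2 and no other member on any.

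**Figure D1:**
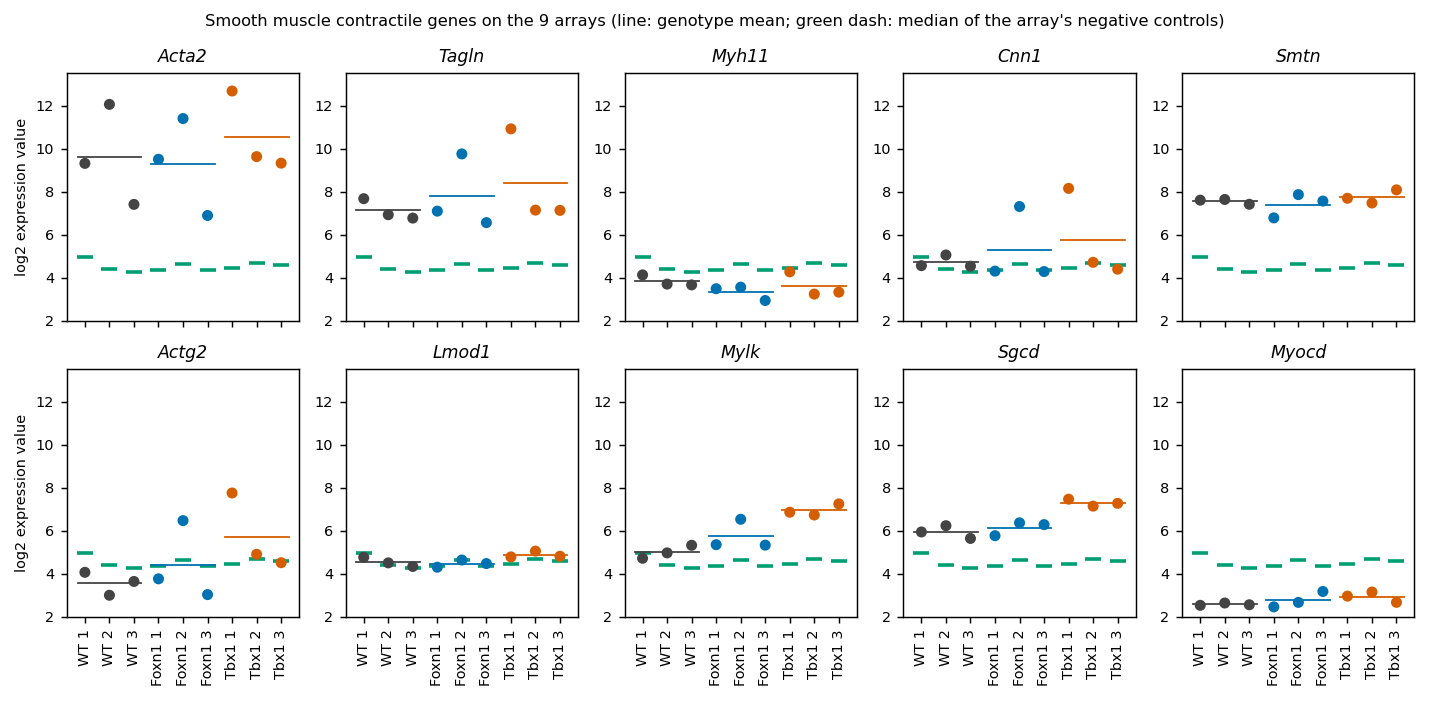
Log2 expression value of each of the 10 members (vertical axis) on the 9 arrays (horizontal axis; grey wild type, blue Foxn1 mutants, orange Tbx1 mutants), with the genotype mean as a line and the array's negative-control median as a green dash. Tagln, Cnn1 and Actg2 peak on Foxn1 mutant replicate 2 and Tbx1 mutant replicate 1, Mylk and Sgcd sit highest on the 3 Tbx1 mutant arrays, and Myh11 and Myocd lie under the dashes throughout.

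Among the thin filament genes, Tagln, Cnn1 and Actg2 were high on 1 array of each mutant genotype, and Acta2 varied within all 3 genotypes. Acta2, smooth muscle alpha actin, stood at 9.31, 12.05 and 7.41 (wild type), 9.50, 11.39 and 6.89 (Foxn1 mutants) and 12.67, 9.63 and 9.32 (Tbx1 mutants). It was highest on Tbx1 mutant replicate 1, then wild type replicate 2, then Foxn1 mutant replicate 2, and the genotypes overlapped within a total range of 5.78 log2 units. Tagln, transgelin, an actin-binding protein that appears early in smooth muscle, stood at 7.67, 6.93 and 6.77 (wild type), 7.09, 9.75 and 6.56 (Foxn1 mutants) and 10.92, 7.14 and 7.13 (Tbx1 mutants). Its high arrays were Foxn1 mutant replicate 2 and Tbx1 mutant replicate 1, and the other 7 stayed at or under 7.67.

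Cnn1, calponin, which binds actin and restrains myosin, stood at 4.56, 5.05 and 4.53 (wild type), 4.30, 7.31 and 4.28 (Foxn1 mutants) and 8.15, 4.71 and 4.39 (Tbx1 mutants). Actg2, the gamma actin of visceral smooth muscle, stood at 4.06, 3.00 and 3.64 (wild type, all under background), 3.76, 6.47 and 3.03 (Foxn1 mutants) and 7.75, 4.90 and 4.51 (Tbx1 mutants). Both genes again peaked on the same pair of arrays, Foxn1 mutant replicate 2 and Tbx1 mutant replicate 1. Those arrays were the 2 highest for Tagln, Cnn1 and Actg2, 3 of the 10 members, and for 4.08% of all clusters, a pair picked out after the values were seen. Acta2 departed from the other 3 genes on wild type replicate 2, where it read 12.05, between Foxn1 mutant replicate 2 and Tbx1 mutant replicate 1.

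Other actins are close copies of Acta2 and Actg2. Acta1, skeletal actin, peaked at 9.74 on wild type replicate 2 and ranged from 4.51 to 6.35 elsewhere, and Actc1, cardiac actin, 9.83 against 5.38 to 8.13, while Myh3, embryonic skeletal myosin, read 13.99 against 5.08 to 9.94. Wild type replicate 2 was therefore high in striated muscle actins as well as in Acta2, and not in Tagln (6.93) or Actg2 (3.00). Cnn1 read 5.05 there, its highest value outside Foxn1 mutant replicate 2 and Tbx1 mutant replicate 1. Whether transcripts of one actin reach the probes of another was not tested. Actb, the actin of all cells, lay between 18.48 and 18.86.

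Of the 7 vessel wall matrix genes, 5 were highest on the same pair of arrays as Tagln, Cnn1 and Actg2 (4.08% of all clusters). Eln and this pair of arrays were picked after the values were seen. Eln, elastin, read 10.80 on Foxn1 mutant replicate 2 and 12.91 on Tbx1 mutant replicate 1, and 5.77 to 7.55 on the other 7 arrays. Fbln5, fibulin-5, which helps to lay down elastic fibres, read 11.27 and 13.62 there, and 6.13 to 8.06 elsewhere. The mean of the 7 measured genes of the vessel wall matrix list was 8.64 and 9.15 on these arrays and 6.01 to 6.99 on the others. Rgs5, a pericyte gene, was high on Tbx1 mutant replicate 1 alone (9.52, 5.49 to 7.08 elsewhere), and the pericyte list mean (10 of 10 genes, Higd1b and Ndufa4l2 under background on all arrays) was 7.06 to 7.75 in wild type, 7.30 to 7.74 in the Foxn1 mutants and 7.53 to 8.02 in the Tbx1 mutants. It was highest on Tbx1 mutant replicate 1, and 2 of the 10 genes had the same pair of arrays on top. Of the pericyte genes, 8 of 10 were higher in the Tbx1 mutants than in wild type (52.2% of all clusters), with a median difference of 0.64. None was called (0.0135% of all clusters), and the 2 lower genes included Anpep, described at the end. The pericyte list means of Tbx1 mutant replicates 2 and 3 (7.53 and 7.59) lay within the wild type range. The endothelial list mean (9 of 10 genes) was 8.22 and 8.17 on the 2 arrays and 7.30 to 7.90 elsewhere. Heart muscle genes were high on Foxn1 mutant replicate 2 (6.95) and not on Tbx1 mutant replicate 1 (4.67). The part of these cell types in the members' values was not tested.

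**Figure D2:**
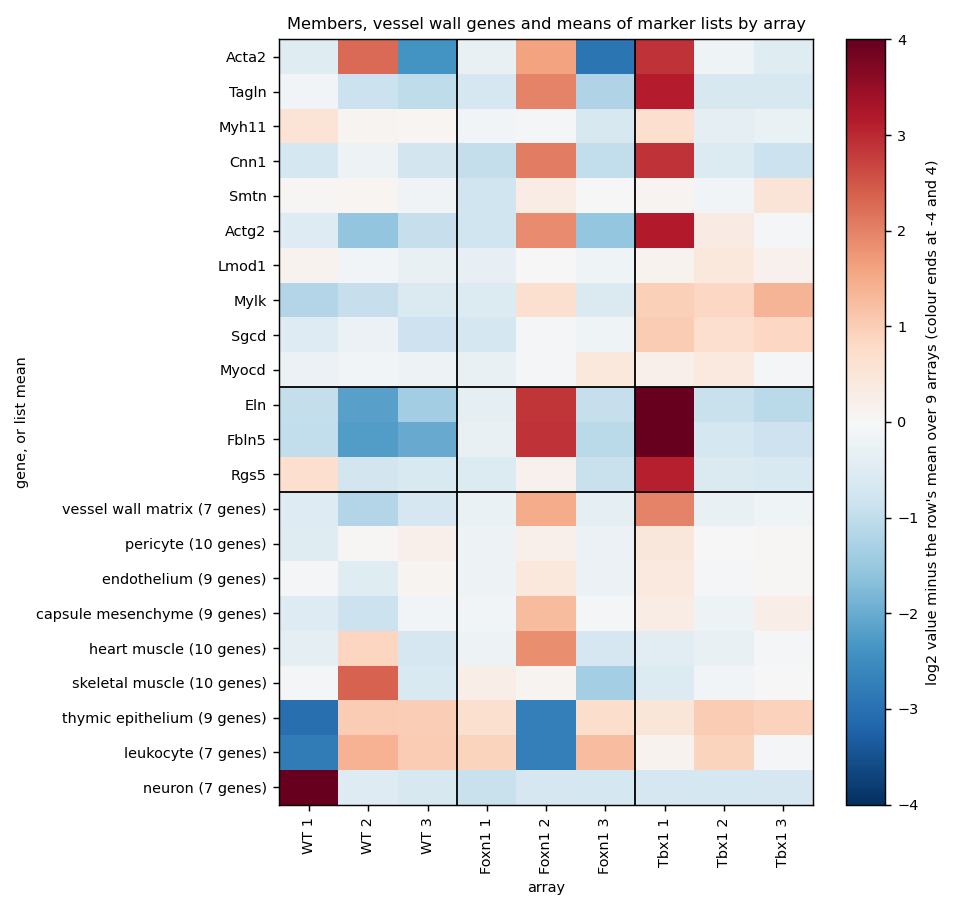
Log2 value minus the row's own mean over the 9 arrays, in colour (red higher, blue lower; the scale ends at -4 and 4), for the 10 members, 3 vessel genes and the means of 9 lists, with arrays as columns. Tagln, Cnn1, Actg2, Eln and Fbln5 are red on Foxn1 mutant replicate 2 and Tbx1 mutant replicate 1, while the thymic epithelium and leukocyte lists are blue on Foxn1 mutant replicate 2 and wild type replicate 1.

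Mylk and Sgcd behaved differently from the thin filament genes: the 3 Tbx1 mutant arrays were the 3 highest and lay close together. Mylk, myosin light chain kinase, which in its long form also serves non-muscle cells, stood at 4.72, 4.97 and 5.32 (wild type), 5.35, 6.53 and 5.33 (Foxn1 mutants) and 6.86, 6.73 and 7.24 (Tbx1 mutants). Its genotypes did not overlap: every Foxn1 mutant array lay above every wild type array, the lowest of them by a narrow margin (5.33 against 5.32), and every Tbx1 mutant array above both. Sgcd, delta-sarcoglycan, a membrane protein that ties the muscle cytoskeleton to the matrix, stood at 5.94, 6.23 and 5.64 (wild type), 5.77, 6.36 and 6.28 (Foxn1 mutants) and 7.46, 7.14 and 7.27 (Tbx1 mutants). Wild type and Foxn1 mutants overlapped, and the lowest Tbx1 mutant array (7.14) stood above the highest of the other 6 (6.36).

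Smtn, smoothelin, a cytoskeletal protein of contractile smooth muscle, was the steadiest member above background. It stood at 7.60, 7.63 and 7.41 (wild type), 6.78, 7.86 and 7.56 (Foxn1 mutants) and 7.69, 7.47 and 8.08 (Tbx1 mutants). The 3 genotypes overlapped over a range of 1.30 log2 units, and its highest array was Tbx1 mutant replicate 3, followed by the pair on which Tagln peaked.

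Between Foxn1 mutants and wild type no member passed the test (limma across all clusters, adjusted p of 0.05 as the threshold), as was true of every cluster (0%). The members lay on both sides of 0: 6 of 10 were higher and 4 lower, with a median log2 difference of 0.20 beside 0.018 over all clusters, of which 52.4% were higher. Without Foxn1 mutant replicate 2 the count turned to 3 higher and 7 lower, with a median of -0.23. Mylk was at 0.73 ± 0.34, Tagln at 0.68 ± 1.07 and Cnn1 at 0.58 ± 1.04 (SE, n = 3 per genotype; adjusted p = 1.00 for each). Actg2, under background on all wild type and 2 of 3 Foxn1 mutant arrays, was at 0.85 ± 0.99, and at 0.52 with values floored at the negative-control median. Acta2 was at -0.33 ± 1.41, Smtn at -0.15 ± 0.29 and Sgcd at 0.20 ± 0.24. At an unadjusted threshold of 0.05 there were 0 members, against 4.04% of all clusters. Mylk was the 1 member whose Foxn1 mutant arrays all lay above wild type (4.86% of clusters), and Myh11, at background, the 1 that lay below (3.43%).

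The higher values of Tagln, Cnn1 and Actg2 in the Foxn1 mutants came with Foxn1 mutant replicate 2, an array low in thymic and high in vessel wall genes. Without it, Tagln was at -0.30, Acta2 at -1.39 and Mylk at 0.34. Cnn1 was at -0.42 and Actg2 at -0.17, but there both remaining Foxn1 mutant values of each gene were under background, as were all wild type values of Actg2. Within date code A, where that array meets 1 wild type array, the differences were 2.98 for Tagln, 2.77 for Cnn1 and 3.99 for Acta2. Within code B, with 2 Foxn1 mutant arrays and 1 wild type array, they were -0.100 for Tagln, -0.76 for Cnn1 and -3.86 for Acta2, with Actg2 under background on all 3 arrays. For Mylk the 2 codes gave 1.21 and 0.37. Acta2 moved furthest with wild type replicate 2 left out, to 0.90.

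Between Tbx1 mutants and wild type 0 of the 10 members passed, against 0.0135% of clusters (3 of 22206). Of the members, 9 of 10 were higher in the Tbx1 mutants, with a median difference of 0.99 beside 0.015 over all clusters, of which 52.2% were higher. Mylk was at 1.94 ± 0.34, 3.84-fold on the linear scale, and Sgcd at 1.35 ± 0.24, 2.56-fold (SE, n = 3 per genotype; adjusted p = 0.242 and 0.248). By p-value they ranked 23 and 24 of the 22206 clusters, and they were the 2 members past an unadjusted threshold of 0.05 (3.79% of clusters). Tbx1 mutant arrays lay above all wild type arrays for 5 members (Actg2, Lmod1, Mylk, Sgcd and Myocd), beside 5.18% of clusters, and below them for 0 (4.27% of clusters). Of these 5, Myocd was at background on every array, Lmod1 close to it, and Actg2 under it on all wild type arrays and on Tbx1 mutant replicate 3.

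**Figure D3:**
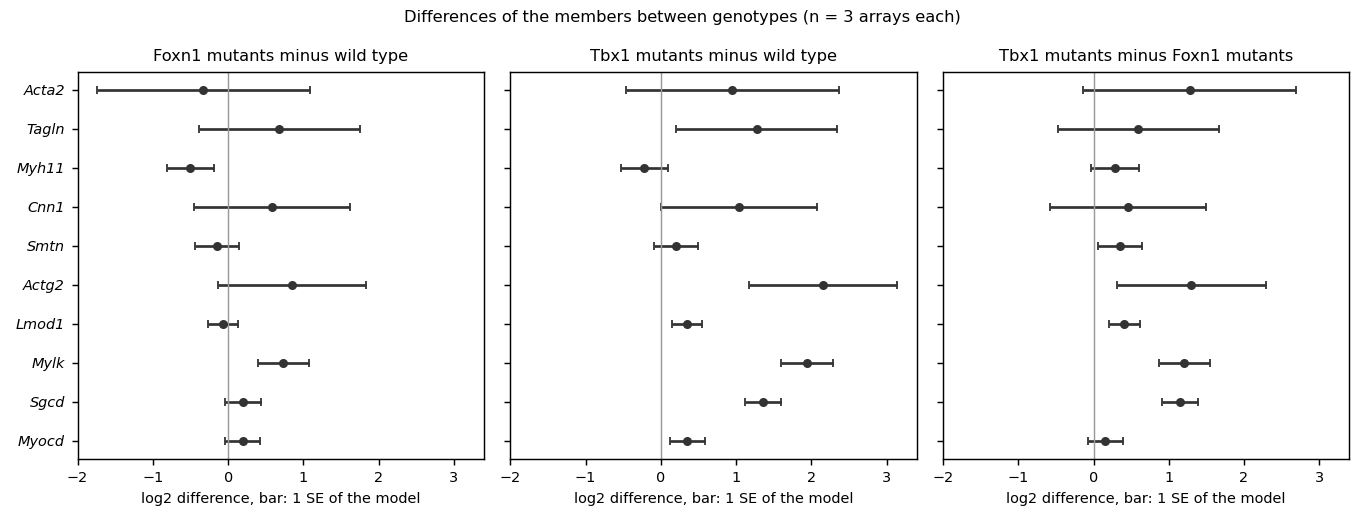
Log2 difference of each member (points, with bars of 1 SE of the model, n = 3 arrays per genotype) in the 3 comparisons. The bars of Mylk (1.94 ± 0.34) and Sgcd (1.35 ± 0.24) are clear of 0 in the Tbx1 mutants against wild type. So are those of Actg2, Tagln, Lmod1 and Myocd, and no member was called. The bars of Acta2, Tagln, Cnn1 and Actg2 are at least 4 times as wide as that of Sgcd.

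Mylk and Sgcd held their size with any 1 array left out, and their direction in the 2 date codes that hold both genotypes. Mylk was at 1.54 within code A and 2.27 within code C, and Sgcd at 1.82 and 1.27. Code A has 1 array of each genotype. Code C sets Tbx1 mutant replicates 2 and 3 against wild type replicate 1, an array low in thymic and high in neuronal genes. Some mural cell genes were also lowest on that array, as described at the end. With any 1 array left out Mylk lay between 1.79 and 2.10 and Sgcd between 1.21 and 1.50. Mylk on wild type replicate 1 was under background; with values floored at the negative-control median its difference was 1.87. Without the 2 arrays low in thymic genes the differences were 1.80 for Mylk (adjusted p = 0.0881) and 1.36 for Sgcd (adjusted p = 0.268). Over all alternatives the adjusted p lay between 0.0592 and 1.00 for Mylk and between 0.157 and 0.926 for Sgcd. The thin filament genes did not hold. Actg2 was at 2.15 ± 0.99 in the fit, but all wild type arrays were under background. With these set to the negative-control median and the Tbx1 mutant values as measured, it was 2.26-fold higher. Tbx1 mutant replicate 3 was also under background, so this is not a lower bound. Without Tbx1 mutant replicate 1 the figure was 1.12-fold. Tagln was at 1.27 ± 1.07, Cnn1 at 1.04 ± 1.04 and Acta2 at 0.95 ± 1.41 (adjusted p = 1.00 for these 4). Within code A, Tagln, Cnn1 and Acta2 were at 4.15, 3.62 and 5.27, and within code C at -0.54, -0.0044 and 0.16. Without Tbx1 mutant replicate 1, Tagln was at 0.012, Cnn1 at -0.16 and Acta2 at -0.12, and the median over the members was 0.28, with 7 of 10 higher.

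**Figure D4:**
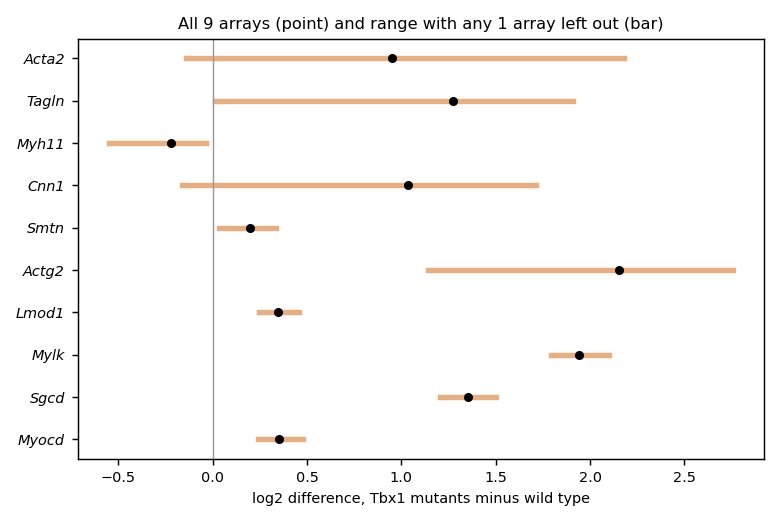
Log2 difference of each member between Tbx1 mutants and wild type with all 9 arrays (points) and the range when any 1 array is left out (bars). The ranges of Mylk (1.79 to 2.10) and Sgcd (1.21 to 1.50) are narrow, and those of Acta2 (-0.14 to 2.18) and Cnn1 (-0.16 to 1.72) cross 0.

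The mean of 3 measured parathyroid genes (Pth, Casr and Chga) was 5.37 to 5.92 on the Tbx1 mutant arrays, 10.08 to 11.98 on the Foxn1 mutants and 11.03 to 13.60 in wild type; Pth and Chga are 2 of the 3 clusters called in this comparison. Col1a1, a fibrillar collagen of mesenchyme, read 13.14, 12.60 and 13.36 in the Tbx1 mutants against 11.96, 11.09 and 11.77 in wild type. The capsule mesenchyme list mean (9 of 10 genes) was 10.71 to 11.22 in the Tbx1 mutants, 10.05 to 10.80 in wild type and 10.81 to 12.17 in the Foxn1 mutants. All 9 were higher than wild type in the Foxn1 mutants and 8 in the Tbx1 mutants (52.4% and 52.2% of all clusters). Between the mutants, 7 of the 9 were lower in the Tbx1 mutants, while 48.7% of all clusters were higher. The part of the parathyroid and mesenchyme genes in the values of Mylk and Sgcd was not tested.

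Between the mutants, all 10 members were higher in the Tbx1 mutants than in the Foxn1 mutants, 0 passed the test (0% of clusters), and the median difference was 0.52 beside -0.0084 over all clusters, of which 48.7% were higher. This comparison shares its arrays with the 2 above. Sgcd was at 1.15 ± 0.24 and Mylk at 1.21 ± 0.34 (SE, n = 3 per genotype; adjusted p = 0.999 for both), and these were the 2 members past the unadjusted threshold (2.98% of clusters). Lmod1, Mylk and Sgcd were the 3 members whose Tbx1 mutant arrays lay above all Foxn1 mutant arrays (3.91% of clusters) and above all 6 other arrays (0.932% of clusters). Lmod1 was close to background, passing it by at most 0.37 on any array. Within code A, the 1 code with both mutants, Sgcd was at 1.10, Mylk at 0.33, Acta2 at 1.28 and Tagln at 1.17. Without Foxn1 mutant replicate 2 the median was 1.36. Without Tbx1 mutant replicate 1 it was 0.25, with 7 of 10 members higher and Tagln at -0.67, Cnn1 at -0.74 and Myh11 at -0.046. The F test for any difference among the 3 genotypes called 0 members, against 0.00901% of clusters (2 of 22206). Its lowest adjusted p was 0.463, for Sgcd, with 0.610 for Mylk, and 2 members passed unadjusted (3.22% of clusters).

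Further genes of the contractile programme, from lists fixed by name, gave no calls in any comparison with limma. The other contractile and cytoskeletal genes (22 of 24 measured) had 0 called, 1 past the unadjusted threshold in the Tbx1 mutants against wild type, and a median of 0.15 there (-0.0087 in the Foxn1 mutants). Myl9, the regulatory light chain that the kinase of Mylk phosphorylates, read 7.19 on Foxn1 mutant replicate 2 and 7.52 on Tbx1 mutant replicate 1, and 5.48 to 6.25 elsewhere. Itga8, an integrin of smooth muscle and mesenchyme, stood at 10.64, 10.79 and 11.11 (Tbx1 mutants) and 9.56, 8.82 and 10.32 (wild type). Because Itga8 was named for its low p in the F test, this separation follows from the choice. Serum response factor and its partners (11 of 11 measured) had 0 called and medians of -0.11 and -0.054 in the Foxn1 and Tbx1 mutants. Gata6, a factor that holds vascular smooth muscle in its differentiated state, was at 1.07 ± 0.32 and 0.79 ± 0.32 (adjusted p = 1.00 for both). It was named for its low p in the F test. Of its list, 7 of 11 genes were lower than wild type in the Foxn1 mutants and 6 of 11 in the Tbx1 mutants. Over all clusters, 52.4% and 52.2% were higher. The inducing signals, such as the TGF-beta and PDGF genes (12 of 14 measured), had 0 called in each comparison and 0 past the unadjusted threshold.

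Of the calcium handling and relaxation genes (7 of 11 measured), 0 were called. In the Tbx1 mutants 6 were higher than in wild type (52.2% of all clusters), with a median of 0.20. Gucy1b1, a subunit of the nitric oxide receptor that relaxes smooth muscle, stood at 6.88, 6.47 and 6.73 (Tbx1 mutants), 5.77, 6.20 and 5.93 (wild type) and 5.76, 6.37 and 5.73 (Foxn1 mutants). Like Sgcd it did not overlap the other genotypes, at 0.73 ± 0.24 against wild type (adjusted p = 1.00). It was the 1 gene of the 7 with its Tbx1 mutant arrays above all 6 others, beside 0.932% of all clusters. It was named for its low p in the F test, so this separation follows from the choice. The dystrophin complex partners of delta-sarcoglycan (10 of 12 measured) had 0 called and a median of 0.020 in the Tbx1 mutants against wild type. Sspn, sarcospan, which sits with the sarcoglycans in the membrane, stood at 7.81, 7.17 and 7.56 (Tbx1 mutants), 6.86, 6.15 and 6.43 (wild type) and 6.61, 7.91 and 5.75 (Foxn1 mutants). Sspn too was named for its low p in the F test. The vessel wall matrix list (7 of 8 measured) had 0 called and medians of 0.66 and 0.85 in the Foxn1 and Tbx1 mutants. All 7 measured genes were higher in both mutants than in wild type (52.4% and 52.2% of all clusters). The list mean was 8.64 on Foxn1 mutant replicate 2 and 9.15 on Tbx1 mutant replicate 1. On the other mutant arrays it was 6.78 to 6.99, and in wild type at most 6.65. Of the 7, 5 had Foxn1 mutant replicate 2 and Tbx1 mutant replicate 1 as their highest arrays, beside 4.08% of all clusters, for a pair picked after the values were seen.

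Over the 9 arrays the 45 pairs of members had a median Pearson correlation of 0.46 (-0.41 to 0.97), a description over arrays that share their platform and normalization. Tagln was closest to Cnn1 (0.97) and Actg2 to Tagln (0.95), but without Foxn1 mutant replicate 2 and Tbx1 mutant replicate 1 these fell to 0.12 and 0.56 over 7 arrays. Mylk and Sgcd were each other's closest member (0.86, and 0.88 without those 2 arrays), and Lmod1 was closest to Sgcd (0.78, and 0.81 without them). Acta2 was closest to Cnn1 (0.75). Myh11, Smtn and Myocd had no partner above 0.61.

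The mean of the members was 5.53, 5.67 and 5.13 (wild type), 5.28, 6.65 and 5.05 (Foxn1 mutants) and 7.35, 5.91 and 5.87 (Tbx1 mutants). It was led by the thin filament genes, whose range was widest. Among 10098 other named clusters above the median level, the 5 most like it over the 9 arrays were Hey2 (Pearson 0.95), Pgap4 (0.93), Mtus2 (0.92), Myl9 (0.92) and Usp9x (0.91). Hey2, a transcription factor of the Notch pathway known from arteries and heart, read 7.95 on Foxn1 mutant replicate 2, 9.34 on Tbx1 mutant replicate 1 and 5.78 to 7.08 elsewhere. Without Foxn1 mutant replicate 2 and wild type replicate 1 the 5 correlations lay between 0.92 and 0.95. Without Foxn1 mutant replicate 2 and Tbx1 mutant replicate 1 they were 0.71, 0.91, 0.57, 0.48 and 0.68 in the same order, so Pgap4 was the 1 that stayed above 0.9.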

How the data were processed

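Total RNA of e13.5 thymic lobes was measured on 9 Clariom S arrays, 3 per genotype. The deposited values are log2 expression values, normalized by the authors by a method, software and genome build not given in the sources used here; they ran from 1.47 to 19.92 and were used as given. The 6640 control features (5222 of them negative controls) were left out, leaving 22206 transcript clusters, of which 19572 had 1 gene symbol, 0 several and 2634 none. No 2 arrays held identical values. Groups followed the genotype label, and replicates were numbered in accession order.

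The limma package (version 3.58.1, R version 4.3.3) fitted 1 term per genotype over the 9 arrays, with two-sided moderated tests and Benjamini-Hochberg adjustment over all 22206 clusters; a cluster with an adjusted p under 0.05 is called. Errors are SEs of the model. With 3 arrays a side, a two-sided exact permutation test of 1 value cannot go below p = 0.1, so none was run. The fit was tested on simulated data. The members, lists, motifs and alternatives were chosen with earlier results of these data known.

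Genes named are the 10 members, up to 4 per pathway list with the lowest p in the F test, marker genes with the widest range, near-copy actins, and the 5 genes most like the members' mean. Eln, Kcnj8, Abcc9 and the pairing of Foxn1 mutant replicate 2 with Tbx1 mutant replicate 1 were picked after values were seen. The list genes without a cluster here were not analysed. Alternatives were other normalizations, filters, moderation, weights, date code blocks, floors, thresholds, fewer arrays and single arrays left out. Motifs were searched and figures drawn in Python 3.11.15 (matplotlib 3.10.9).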

Additional observations from a re-analysis of the deposited data

How the results depend on the processing

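No member had an adjusted p under 0.05 in any comparison under the alternatives run, or under 0.10 with the main settings. Mylk in the Tbx1 mutants against wild type fell under 0.10 in 3 of them, with array weights (0.0592), without both arrays low in thymic genes (Foxn1 mutant replicate 2 and wild type replicate 1) (0.0881) and without Foxn1 mutant replicate 2 (0.0941). At an unadjusted threshold of 0.05 there were 2 members in the Tbx1 mutants against wild type, 2 in the Tbx1 against the Foxn1 mutants and 2 in the F test. Mylk and Sgcd kept their direction under every alternative. The median over the members in the Foxn1 mutants against wild type was -0.23 to 0.49 with 1 array left out, and -0.027 without both arrays low in thymic genes. That between the mutants was 0.25 to 1.36 with 1 array left out, and 1.36 without both arrays low in thymic genes. The cause of the changes of sign below was not tested. With 1 array left out, the difference of Foxn1 mutants from wild type ranged from -1.42 to 0.90 for Acta2, -0.30 to 1.30 for Tagln, -0.42 to 1.09 for Cnn1, -0.38 to 0.16 for Smtn, -0.17 to 1.55 for Actg2, -0.16 to 0.050 for Lmod1 and -0.012 to 0.34 for Myocd. That of Tbx1 mutants from wild type ranged from -0.14 to 2.18 for Acta2 and -0.16 to 1.72 for Cnn1, and between the mutants from -0.046 to 0.47 for Myh11, -0.67 to 1.57 for Tagln and -0.74 to 1.46 for Cnn1. Other changes of sign in the Foxn1 mutants against wild type were Cnn1 at -0.056 with array weights, Lmod1 at 0.040 with date code as a fixed block, Myocd at -0.085 with floored values, and Tagln at -0.022 and Cnn1 at -0.50 without these 2 arrays. Without Foxn1 mutant replicate 2 and Tbx1 mutant replicate 1, left out together after the data were seen, Tagln was at -0.30, Cnn1 at -0.42 and Actg2 at -0.17 there, and Acta2 at -0.12 and Cnn1 at -0.16 in the Tbx1 mutants against wild type. Myh11 was at 0.022 in the latter with floored values. With an array left out, the smaller group is assumed to vary like the others. Replicate numbers only follow accession order and pair no samples, so date code was the block tried; as a block it called 0 members. Signal near background limits Myh11, Myocd, Lmod1, Actg2 and Cnn1. It also limits Mylk in wild type, where replicate 1 was under background. Neither Mylk nor Sgcd passed the 95th percentile of the negative controls on any array.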

Other observations

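Some mural cell genes were lowest on wild type replicate 1. Pdgfrb, the receptor that recruits pericytes, was at 10.64 on it, and elsewhere ranged from 12.52 to 13.53. Kcnj8 and Abcc9, which form a potassium channel of pericytes and vascular smooth muscle, read 4.53 and 7.97 on wild type replicate 1. On the remaining arrays Kcnj8 lay between 5.31 and 7.15, lowest on Foxn1 mutant replicate 2, and Abcc9 between 9.64 and 10.36. Anpep, an aminopeptidase of pericytes and several other cells, read 10.92, 10.43 and 10.83 in the Tbx1 mutants, under all 6 other arrays (11.88 to 14.30), at -2.69 ± 0.44 against wild type (SE, n = 3 per genotype; adjusted p = 0.180 with limma).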
